A study of Zea mays with 2 samples.

Results

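Compact nuclear loci are short stretches of the maize genome that the expression files list once: positions on chromosomes 1 to 10 with a single value in each library that lists them and a span (end minus start) of 300 to under 1000 bp. The rule used position and span and no expression value. It found 4593 loci among 34022 listed positions, or among 30290 single-value nuclear loci. Of these, 2880 were listed in both libraries, 976 only in the wild-type library and 737 only in the RNAi library. A further 109 positions of this span held several values and were left out by the rule. The comparison set was the 24691 single-value nuclear loci of 1000 to under 20000 bp, called longer loci here.

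The study compared ZmMADS47 RNAi kernels with wild-type (WT) kernels at 15 days after pollination (DAP). Both came from 1 transgenic line carrying an RNAi construct under a zein promoter that is active in the endosperm: kernels with the transgene formed the RNAi pool and those without it formed the WT pool. The labels give kernel as the source and endosperm as the tissue. Each genotype has 1 file of FPKM values (fragments mapped, scaled by transcript length and by library size), so no value has a replicate error and no difference was tested. Ratios are RNAi FPKM over WT FPKM. In bulk tissue, fewer cells of a type and less RNA per cell cannot be told apart. The summed FPKM was 1.24e+06 for WT and 1.10e+06 for RNAi, and the number of reads behind each value is not given in the files. The locus at the ZmMADS47 position (chr1:17965514-17987077, AGPv2, too long to be a member) was matched by overlap with a published interval of the gene, which covers 96.2% of its span and has the same length. It had 8.79 FPKM in WT and 4.01 FPKM in RNAi, a ratio of 0.457. All printed positions are 1-based on AGPv2. Spans are the end minus the deposited start, which is lower by 1 than the printed start. The files pair no position with a gene name, so members are named by position and the labelled tissue was not checked against marker genes.

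Short genes are well known from the maize endosperm. The α-zeins, storage proteins made in the starchy endosperm, are encoded by genes without introns that lie in tandem clusters of near-identical copies, and several other abundant seed proteins have short genes. Opaque2, a bZIP factor, activates many zein genes, and ZmMADS47 is a MADS-box protein that binds Opaque2. None of this assigns a gene to any locus below. FPKM divides by transcript length, and Cufflinks uses an effective length, the number of places where a fragment can start, so that 1 fragment on a short transcript is worth a higher FPKM than on a long one. Where copies are nearly identical, the division of reads between them is an estimate.

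Most compact loci were weakly expressed, and a few were among the most abundant of the genome. The median FPKM of listed compact loci was 1.77 for WT and 1.99 for RNAi, against 3.68 and 3.91 for longer loci. The order was the reverse at the top. The 99th percentile of compact loci was 308 FPKM in WT and 325 FPKM in RNAi, against 140 FPKM and 145 FPKM for longer loci. The highest compact locus had 67320 FPKM in WT and 52638 FPKM in RNAi, and the highest longer loci had 24171 FPKM and 16825 FPKM. Against all longer loci, compact loci were therefore the lower set at the median and the higher set in the upper tail, in both libraries. The order at the median depended on span within the longer set. Among loci listed in both libraries, the median was 2.01 FPKM in WT and 2.04 FPKM in RNAi at 1000 to under 1500 bp. This was below every 100-bp class of members. At 3000 to under 20000 bp it was 6.76 FPKM and 7.21 FPKM. The compact median was 0.482 times the longer one in WT and 0.511 times in RNAi. Against longer loci of 1000 to under 5000 bp these were 0.680 and 0.717.

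**Figure D1:**
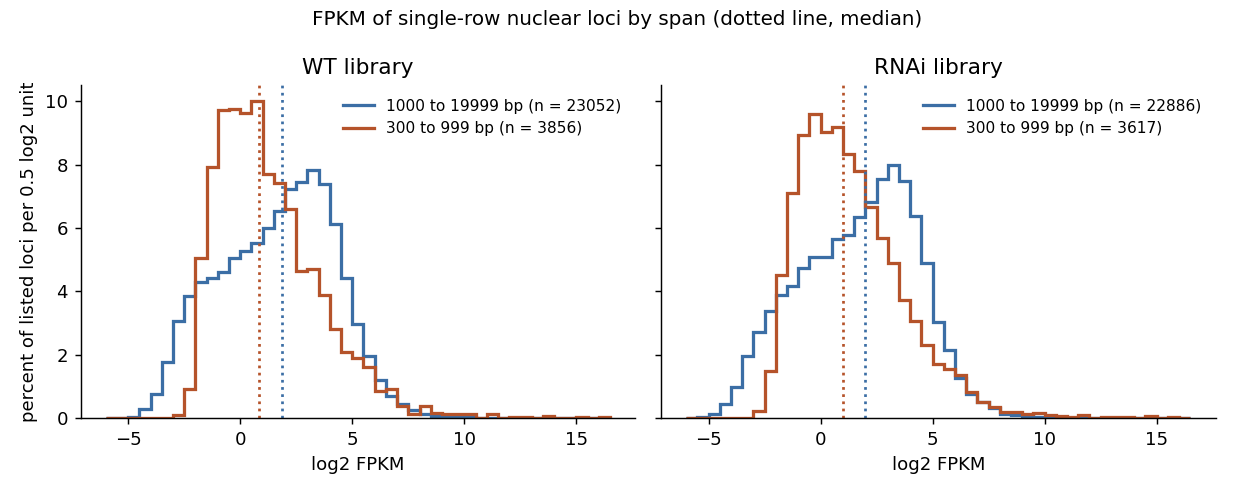
Distribution of log2 FPKM for WT (left) and RNAi (right) for single-value nuclear loci of 300 to under 1000 bp and of 1000 to under 20000 bp, as percent of listed loci per half-unit of log2; dotted lines mark medians. The compact curve peaks lower, with medians of 1.77 and 1.99 FPKM against 3.68 and 3.91 FPKM, and has a thin tail reaching the highest values.

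The low end of the compact distribution was bounded by span. Among members of 300 to under 400 bp, the lowest listed value was 0.846 FPKM in WT and 0.762 FPKM in RNAi. Among members of 900 to under 1000 bp it was 0.162 FPKM and 0.148 FPKM. The median of members listed in both libraries was also lower at longer spans, from 4.95 FPKM in WT and 6.56 FPKM in RNAi at 300 to under 400 bp to 2.26 FPKM and 2.37 FPKM at 900 to under 1000 bp. Comparisons of level between spans therefore carry this lower bound with them. Values at the span limits were close on either side of the upper limit and further apart at the lower one. The 66 loci in the last 10 bp below the upper limit had a median mean FPKM (over the 2 libraries, with 0 where not listed) of 0.816, and the 68 loci in the first 10 bp from it one of 0.907. The 39 loci in the first 10 bp from the lower limit had a median of 1.55, and the 36 loci in the 10 bp below it one of 3.85.

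Compact loci held 19.0% of all FPKM in WT and 18.8% in RNAi, while making up 12.2% and 11.7% of the listed positions. Longer loci held 29.0% and 31.8%. The compact sum was 235378 FPKM in WT and 207503 FPKM in RNAi, a ratio of 0.882, beside 0.888 for all values of the files. This sum rested on few loci. The 18 members with a mean FPKM of 1000 or more made up 80.6% of it in WT and 78.6% in RNAi, and the 2 highest members alone 48.2% and 39.7%. The 3184 WT values and 2946 RNAi values below 10 FPKM, over 80% of the listed members, added 2.98% and 3.24% of the sum. With the 18 abundant members left out, the compact sum had a ratio of 0.973. The sum of longer loci below the same mean had a ratio of 1.04.

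Abundant members were unevenly spread over spans. Of the 18 members at a mean of 1000 FPKM or more, 9 lay in the class of 700 to under 800 bp, which held 71.0% of the compact sum in WT and 59.3% in RNAi. No other class of 100 bp held more than 3 of them. This level was reached by a larger share of compact than of longer loci: 18 of 4593 members, or 0.392%, against 16 longer loci, or 0.0648%. Of these 16, 9 were among the 3317 loci of 1000 to under 1500 bp. The 9 members of 700 to under 800 bp came from a class of 798. The difference between the sets thus depended on span within each. In all, 105 listed positions reached this level, organelle and multi-value positions included.

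The 2 most abundant members lay on chromosome 7 and had equal spans of 723 bp. The higher one, chr7:18854431-18855153, had 67320 FPKM in WT and 52638 FPKM in RNAi, a ratio of 0.782 and inside the fold limits of 0.71 and 1.4 used throughout. The other, chr7:18866467-18867189, had 46128 FPKM and 29693 FPKM, a ratio of 0.644 and below the lower limit. The next in rank, chr6:44381573-44382522, ran the other way, with 15243 FPKM in WT and 25165 FPKM in RNAi. They were followed by another pair on chromosome 7, both of 726 bp. The locus chr7:18768582-18769307 had 13128 FPKM in WT and 13232 FPKM in RNAi, a ratio of 1.01. Its neighbour chr7:18744943-18745668 had 12867 FPKM and 10903 FPKM, a ratio of 0.847. The levels within the 726-bp pair differed by 1.02 times in WT and 1.21 times in RNAi, and those within the 723-bp pair by 1.46 times and 1.77 times.

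On chromosome 1, the loci chr1:161774740-161775462 of 723 bp and chr1:161990941-161991666 of 726 bp repeated the spans of the chromosome 7 pairs. The first had 6928 FPKM in WT and 3359 FPKM in RNAi, a ratio of 0.485. The second had 5753 FPKM and 3129 FPKM, a ratio of 0.544. Both had a lower ratio than any of the chromosome 7 members above. Another locus of like span, chr10:4606883-4607617 of 735 bp, had the lowest ratio of the abundant members, 0.234, from 5085 FPKM in WT to 1188 FPKM in RNAi.

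Grouped by span after the values were seen, the 9 abundant members of 700 to under 800 bp, whose spans ran from 719 to 735 bp, summed to 159837 FPKM in WT and 116785 FPKM in RNAi, a ratio of 0.731. Of these, 4 had a ratio below 0.71, beside 34.1% of all loci of the files at this abundance. They lay on 3 chromosomes (1, 7 and 10). The other 9 abundant members, of 305 to 950 bp, summed to 29994 FPKM in WT and 46384 FPKM in RNAi, a ratio of 1.55. This falls to 1.42 without the one listed only in the RNAi library, and 2 of them had a ratio below 0.71. The sum rested largely on chr6:44381573-44382522, with 15243 FPKM in WT and 25165 FPKM in RNAi. Of the 8 listed in both libraries, 4 had a ratio below 1, so the ratio of sums does not describe them as a set.

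Among those other 9, the loci higher in RNAi and listed in both libraries were the 2 shortest and 2 on chromosome 6, the one of 950 bp among them. The locus chr10:144442270-144442574 of 305 bp, just inside the span limit, had 2719 FPKM in WT and 6824 FPKM in RNAi, a ratio of 2.51. The locus chr1:165758630-165758946 of 317 bp had 1049 FPKM and 1581 FPKM, a ratio of 1.51. The locus chr6:121390345-121391179 of 835 bp had 956 FPKM in WT and 2913 FPKM in RNAi, a ratio of 3.05 and the largest ratio of an abundant member listed in both libraries. One abundant member, chr10:11913921-11914488, was listed only in the RNAi library, at 3645 FPKM, and its nearest listed position lay 102745 bp away.

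Apart from a member of the chromosome 7 group, given with it, the remaining abundant members were 2 that lay under the lower limit and 3 inside the limits. The locus chr6:39088029-39088716 had 2894 FPKM in WT and 978 FPKM in RNAi, a ratio of 0.338. Its neighbour chr6:39092081-39092901 had 2350 FPKM and 1349 FPKM, a ratio of 0.574. The locus chr10:101520598-101521474 had 2449 FPKM in WT and 2054 FPKM in RNAi, a ratio of 0.839. The locus chr3:138623892-138624577 had 2334 FPKM and 1875 FPKM, a ratio of 0.803, and chr7:24151509-24152227 had 1397 FPKM and 1299 FPKM, a ratio of 0.930. In all, 17 abundant members were listed in both libraries: 4 had a ratio above 1.4, 6 a ratio below 0.71 and 7 lay between. Over all loci of the files at this abundance, 18.8% were above 1.4 and 34.1% below 0.71, and the members' shares were 23.5% and 35.3%.

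**Figure D2:**
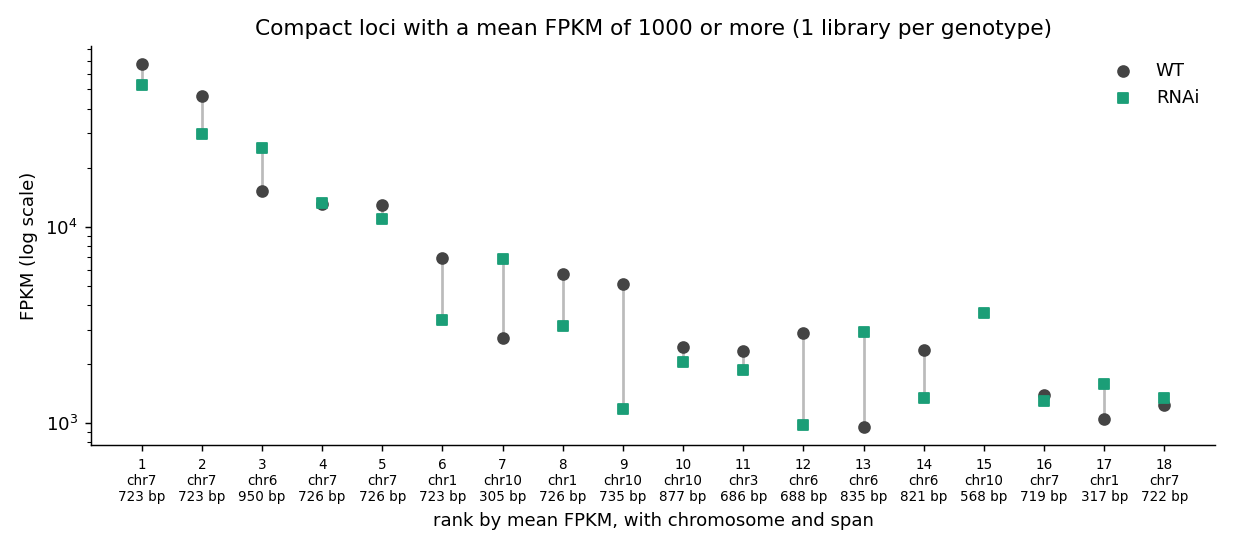
FPKM (log axis) of the 18 compact loci with a mean FPKM of 1000 or more, ranked by mean, with chromosome and span under each rank; circles are the WT library, squares the RNAi library and grey lines join the values of a locus. The levels run from about 1000 to 67320 FPKM, 6 loci lie below the lower fold limit and 4 above the upper one, and the locus of rank 15 was listed only in the RNAi library.

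Most abundant compact loci had a nearest listed position of lower level. Of the 92 members with a mean of 100 FPKM or more, 17 had a nearest listed position that also reached 100 FPKM, 30 had one of 1 to under 10 FPKM and 23 had one below 1 FPKM. The median mean FPKM of these nearest positions was 6.48, against 2.91 for the nearest positions of all compact loci. For comparison, 100 FPKM was reached by 2.41% of listed compact loci in WT and 2.68% in RNAi. Among listed longer loci it was reached by 1.58% and 1.76%. A nearest position at this level was thus more frequent beside abundant members than such loci were in either set. Joined where neighbours lay within 100 kb, the 92 members gave 4 groups with 13 members: 3 pairs and 1 group of 7.

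The group of 7 lay on chromosome 7 (chr7:18744943-18869387), within 124445 bp, and no other position was listed in that stretch. It held 59.8% of the compact FPKM sum in WT and 52.1% in RNAi, with a ratio of sums of 0.767. Besides the 4 members already given, it held chr7:18856739-18857460, with 1232 FPKM in WT and 1343 FPKM in RNAi, and chr7:18778882-18779606, with 130 FPKM and 76.8 FPKM. The last, chr7:18869059-18869387 of 329 bp, had 48.9 FPKM in WT and 173 FPKM in RNAi. Ratios within the group ran from 0.590 to 3.54, with 2 members below 0.71 and 1 above 1.4. Over all loci of the files at 1000 FPKM and more, 34.1% were below 0.71 and 18.8% above 1.4. At 100 to under 1000 FPKM these shares were 9.21% and 15.5%, and the group has members in both ranges. In WT the levels within the group ran from 48.9 FPKM, in the 329-bp member, to 67320 FPKM. In the 6 of the 7 with spans between 722 and 726 bp, they ran from 130 FPKM to 67320 FPKM.

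**Figure D3:**
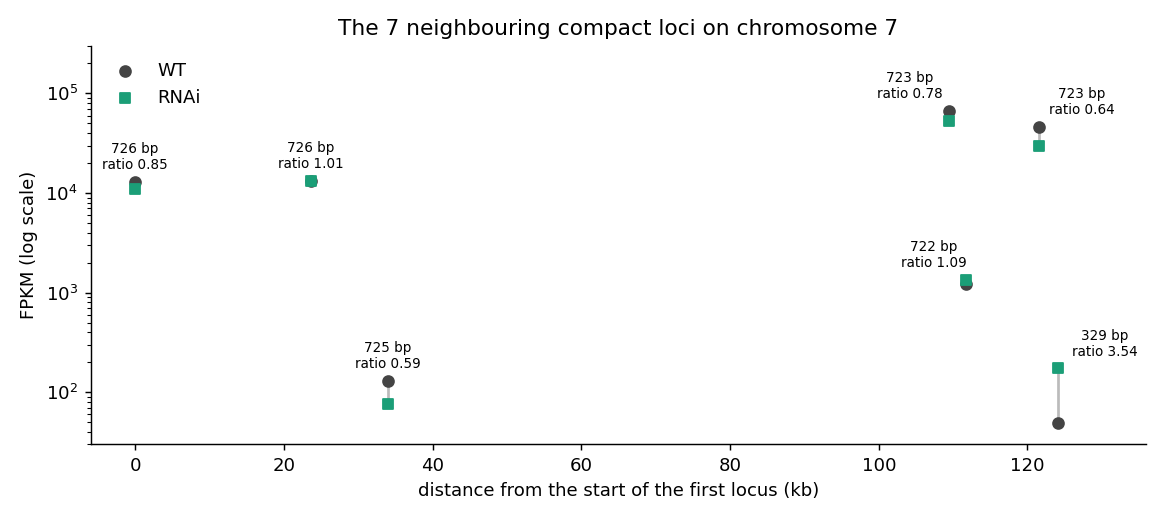
FPKM (log axis) of the 7 neighbouring compact loci on chromosome 7 against the distance of their starts from the first one in kb; circles are the WT library and squares the RNAi library, each locus with its span and RNAi/WT ratio. The 4 members above 10000 FPKM have ratios of 0.644 to 1.01, and the shortest member, of 329 bp, has a ratio of 3.54.

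The pairs differed among themselves. On chromosome 6 the pair already named summed to 5245 FPKM in WT and 2327 FPKM in RNAi, and both members were below 0.71. On chromosome 2, chr2:224992866-224993391 had 268 FPKM in WT and 187 FPKM in RNAi, a ratio of 0.697, while its neighbour chr2:224995417-224996267 had 269 FPKM and 281 FPKM, a ratio of 1.05. On chromosome 3, chr3:155381664-155382256 had 170 FPKM and 126 FPKM, and chr3:155457171-155458057 had 113 FPKM and 122 FPKM, both inside the limits. Neighbours thus lay on the same side of the lower limit on chromosomes 3 and 6 and on different sides on chromosomes 2 and 7.

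At a minimum mean of 50 FPKM there were 14 groups with 37 members, 9 of them pairs. Besides the chromosome 6 pair, every member was below 0.71 in 2 groups of 3, singled out after their values were seen. On chromosome 4, chr4:235746306-235746728 had 101 FPKM in WT and 59.0 FPKM in RNAi, chr4:235758732-235759487 had 104 FPKM and 57.3 FPKM, and chr4:235800846-235801601 had 110 FPKM and 63.1 FPKM. The ratios were 0.581, 0.553 and 0.575. On chromosome 10, chr10:80864563-80865256 had 88.8 FPKM in WT and 58.8 FPKM in RNAi, chr10:80874447-80875294 had 81.7 FPKM and 49.9985 FPKM, and chr10:80906029-80906600 had 122 FPKM and 75.3 FPKM. Here the ratios were 0.662, 0.612 and 0.618. Over all loci of the files at 10 to under 100 FPKM, where these 6 members lie, 4.95% were below 0.71, and in compact loci 17.8%. No group at this minimum had every member above 1.4.

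Over all members, the RNAi/WT ratio was centred on 1 and widely spread. Of the 2445 compact loci listed in both libraries with at least 1 FPKM in one or both, 701 (28.7%) had a ratio above 1.4 and 715 (29.2%) a ratio below 0.71, and 1029 lay between. Over all loci of the files the same limits took in 17.0% and 13.6%. The median ratio was 1.00 in compact loci and 1.06 in longer loci. The split between the directions moved with the scaling. It was 648 above and 758 below when a median ratio was set to 1. That median was taken only over positions where neither library fell under 10 FPKM. With both libraries set to the same sum, the split was 862 above and 614 below.

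The share of compact loci past a limit was lowest at 10 to under 100 FPKM, and it was above that of longer loci of similar FPKM in every range. At a mean of 1 to under 5 FPKM, 64.1% of 1236 compact loci lay past one of the limits, against 43.5% of 6245 longer loci. Over all loci of the files in that range, 25.3% were above 1.4 and 21.2% below 0.71. At 5 to under 10 FPKM the shares were 59.7% of 380 compact loci and 20.5% of 3490 longer loci, where all loci gave 15.0% above and 10.4% below.

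At 10 to under 100 FPKM, 33.7% of 563 compact loci were past a limit, 90 above and 100 below. Longer loci gave 8.55% of 6376, and all loci of the files 7.07% above and 4.95% below. The interquartile range of the log2 ratio here was -0.34 to 0.32 in compact loci and -0.08 to 0.23 in longer loci. At 100 to under 1000 FPKM, 44.3% of 70 compact loci were past a limit, 15 above and 16 below, against 9.70% of 371 longer loci. All loci of the files in that range gave 15.5% above and 9.21% below. At 1000 FPKM and more, 58.8% of 17 compact loci and 43.8% of 16 longer loci were past a limit. Over all 85 loci of the files in that range the share was 52.9%, which lies between these small sets.

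**Figure D4:**
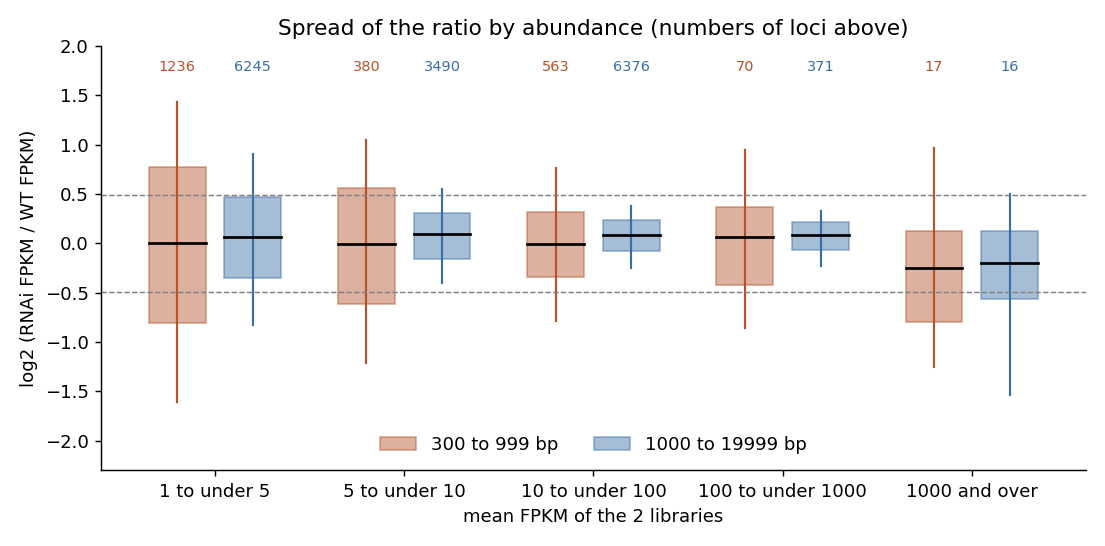
Spread of log2 RNAi/WT FPKM by mean FPKM for compact and longer loci; boxes span the quartiles with the median as a black line, whiskers run from the 10th to the 90th percentile, dashed lines mark the fold limits of 0.71 and 1.4, and numbers of loci stand above. Compact boxes are wider in each range, and at 10 to under 100 FPKM the quartiles are -0.34 and 0.32 against -0.08 and 0.23.

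At 10 to under 100 FPKM the share past a limit was lower at each longer span class, on both sides of the limit between the sets. It was 41.0% of 144 members of 300 to under 500 bp, 36.2% of 149 members of 500 to under 700 bp and 28.5% of 270 members of 700 to under 1000 bp. In longer loci the share was 24.9% at 1000 to under 1500 bp, 14.8% at 1500 to under 3000 bp, 6.71% at 3000 to under 5000 bp and 4.28% at 5000 bp and more. Between the classes on either side of 1000 bp the share went from 59.9% to 60.1% at 1 to under 5 FPKM, from 52.2% to 41.4% at 5 to under 10 FPKM and from 37.5% to 23.3% at 100 to under 1000 FPKM. In that last range it was no longer lower at longer spans, with 6.82% at 1500 to under 3000 bp, 7.63% at 3000 to under 5000 bp and 12.8% at 5000 bp and more. At 10 to under 100 FPKM the median ratio of the longer loci was higher at each longer class, from 1.02 to 1.07, and that of the 3 compact classes lay between 0.973 and 1.02. Among chromosomes, the median ratio of the compared members ran from 0.903 on chromosome 7 to 1.05 on chromosome 5.

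The largest and smallest ratios were taken at minimum means of 10 and 100 FPKM. Among the 87 members listed in both libraries with a mean of 100 FPKM or more, the largest ratio was 8.13, at chr5:93924264-93924631 of 368 bp, with 104 FPKM in WT and 849 FPKM in RNAi. It was followed by the 329-bp member of the chromosome 7 group. The smallest were chr10:4606883-4607617 and chr6:39088029-39088716, both given above. Among the 650 at a mean of 10 FPKM or more, chr10:135135344-135135658 of 315 bp had 2.25 FPKM in WT and 19.2 FPKM in RNAi, a ratio of 8.51. The locus chr1:25099792-25100288 had 19.1 FPKM in WT and 2.44 FPKM in RNAi, a ratio of 0.127, and chr1:253569915-253570810 had 24.8 FPKM and 3.64 FPKM, a ratio of 0.147. The largest ratios at both minimums thus belonged to loci of 315 to 368 bp.

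Many compact loci were listed in a single library. Of the 3120 members with at least 1 FPKM in a library, 675 (21.6%) were listed in that library only, against 300 of 17578 longer loci (1.71%). This minimum is near the lowest value of the shortest members, 0.846 FPKM in WT, but far above the 0.0286 FPKM of longer loci. At any level, 86.1% of members listed only in WT and 80.7% of those only in RNAi were below 2 FPKM. Of all 34022 listed positions, WT listed 31491 and RNAi 31017, and of the 4593 members 3856 and 3617. At 10 to under 100 FPKM in WT, 20 of 579 members (3.45%) were not listed in RNAi, against 1 of 6247 longer loci. At the same level in RNAi, 14 of 574 members (2.44%) were not listed in WT, against 6 of 6495 longer loci. The share listed in 1 library at any level fell from 53.1% of members of 300 to under 400 bp to 29.3% of those of 900 to under 1000 bp. It was 27.2% at 1000 to under 1500 bp.

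The highest members listed only in RNAi were chr10:11913921-11914488, named above, and chr1:126103819-126104151 of 333 bp at 366 FPKM. The highest listed only in WT were chr2:78596124-78596476 of 353 bp at 1006 FPKM and chr2:112177445-112177746 of 302 bp at 462 FPKM. Each has no ratio, since the other file does not list it.

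The lowest values of compact loci came in steps. Of 163 members listed in both libraries whose mean FPKM times span in kb was below 0.35, 131 had a log2 ratio between -0.46 and 0.14. None lay between 0.2 and 0.55, 22 lay at 0.61 or more, 9 at -1.02 or less and 1 between the middle and the lower group. The median ratio in the middle group was 0.879. Among the 481 members where the product was 2 to under 4, 10.8% lay in the stretch that was empty in the low set. The limits of these groups were set after the values were seen.

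Steps also appeared between nearby members of equal span. There were 38 pairs of members with the same span within 200 kb of each other. The loci chr7:161172160-161172907 and chr7:161179810-161180557, both of 748 bp, had 0.612 FPKM and 1.22 FPKM in WT, a quotient of 2. The loci chr2:178118839-178119668 and chr2:178125433-178126262, of 830 bp, had 0.445 FPKM and 0.890 FPKM in WT, also a quotient of 2. Of 23 low comparisons of this kind (FPKM times kb below 1 in both members of a pair within a library), 17 had a quotient within 5% of a whole number and 11 within 1%. Of the 11, 6 were at a quotient of 1, 4 at 2 and 1 at 5, and of the 17, 8 were at a quotient of 1. The 5% window is wider at higher quotients, and the share that would fall within it by chance was not computed. The 38 pairs held 73 loci, so some loci were in more than 1 pair.

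**Figure D5:**
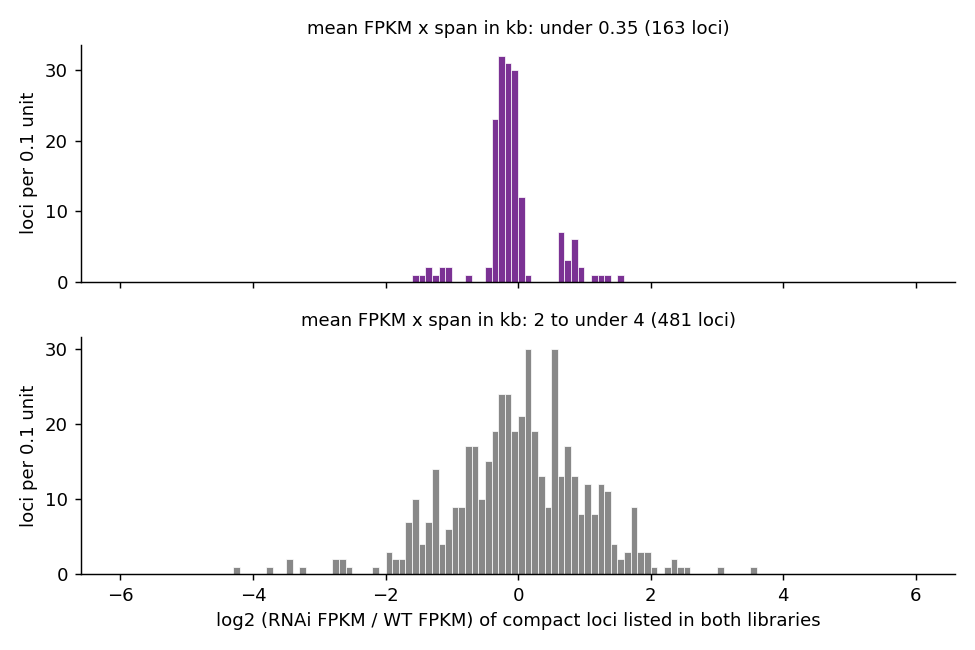
Number of compact loci listed in both libraries per 0.1 unit of log2 RNAi/WT FPKM, for mean FPKM times span in kb below 0.35 (top, 163 loci) and 2 to under 4 (bottom, 481 loci). The top panel shows 131 loci in a middle group with empty space on its right before the next group at 0.61, and the bottom panel has no such gap.

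Members were also measured against the lowest level of their own span class, which was not done for longer loci. This level was taken for each library as the 5th percentile of FPKM of the members of a 100-bp class listed in that library alone. With no minimum FPKM, 72.1% of 995 members at 3 to under 10 times this level in their higher library lay past a fold limit. Over all loci of the files listed in both libraries, not divided by such a level, 19.1% were above 1.4 and 15.8% below 0.71 with no minimum. The members' share was 58.1% at 10 to under 30 times, 41.7% at 30 to under 100 times and 38.5% of 275 members at 100 times or more. Below 3 times it was 33.9% of 407 members. There both values lie close to the lowest level, which bounds the ratio, so this share cannot be set beside the others.

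Spans were read as end minus start, a reading adopted with the following pattern in view, so the pattern is a description only. Read so, the share of spans that are a multiple of 3 was 39.0% of 4593 members and 33.5% of longer loci. It was 52.0% at 300 to under 400 bp, 45.3% at 400 to under 500 bp, 41.5% at 500 to under 600 bp and 39.0% at 600 to under 700 bp, and 34.2% over 700 to under 1000 bp. A gene model that holds only an uninterrupted coding sequence has a length divisible by 3. Members listed in both libraries (38.2%) and in one (40.3%) had similar shares. Of the 18 abundant members, 7 had such a span, among them the pairs of 723 and 726 bp.

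Compact loci lay somewhat nearer to other listed positions than longer loci did. No member overlapped another listed position. The median gap to the nearest one was 4282 bp for compact loci and 5719 bp for longer loci, and 23.9% and 20.4% had it within 1000 bp. The members nearest to a neighbour were the higher ones, and so were the longer loci nearest to one. Those with a gap under 500 bp had a median mean FPKM of 1.68 and 31.7% of them were listed in 1 library, while those with a gap of 50000 bp or more had 0.900 FPKM and 47.8%. Longer loci gave medians of 4.68 FPKM and 2.78 FPKM for the same gaps, with 10.4% and 16.0% listed in 1 library. Members made up 14.1% to 16.0% of the single-value loci on each of the 10 chromosomes.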

How the data were processed

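RNA of 15 DAP kernels was sequenced by the authors on an Illumina HiSeq 2000. According to the methods and the submitters' notes, reads were aligned to AGPv2 with TopHat and Bowtie (0.12.2) and FPKM values were computed with Cufflinks (2.1.1). The authors deposited 1 FPKM value per gene at a chromosome position. The sources differ on replication: the design text speaks of triplicates, but 1 file per genotype was used here, so no test was run. Values at one position were counted, single-value loci were kept, starts were raised by 1, and an unlisted position had no value. Ratios are plain quotients without a pseudocount, with limits of 1.4 and 0.71 and at least 1 FPKM in one or both libraries. Named members were those at a mean of 1000 FPKM or more, members of groups of 3 or more, the 2 largest and 2 smallest ratios at minimums of 10 and 100 FPKM, and the 2 highest of each library listed there only. Members of pairs, of equal-span pairs and of the groups at 50 FPKM were chosen after their values were seen. Members, lists and limits were chosen with earlier results of these data known. Other scalings, pseudocounts, minimums, spans and gaps were tried. The methods state the reads per sample, but the files give no reads per locus, so no counting error is given. The finding of members, calls and groups was tested on a simulated table; the steps in the low values were not simulated. Python 3.11.15, pandas 2.3.3 and numpy 2.4.6 were used.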

Additional observations from a re-analysis of the deposited data

How the results depend on the processing

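No paired analysis was possible because WT and RNAi each had 1 library. For the same reason no library could be left out. The counts of 701 members above 1.4 and 715 below 0.71 stayed within 1.5 times under both scalings, both pseudocounts, no minimum and spans of 250 to under 1200 bp. They were 284 and 292 with a minimum of 5 FPKM, 465 and 451 with 1 FPKM in both libraries, 360 and 413 with a fold limit of 2, 373 and 359 for spans of 300 to under 700 bp, and 374 and 360 at 10 times the lowest level of the span class, a setting chosen after seeing the data. The abundant members above and below were 2 and 3 with a fold limit of 2, and 2 and 1 for spans of 300 to under 700 bp. Scaling to the same sum raised every log2 ratio by 0.17. The compact share of FPKM was 2.73% in WT and 3.59% in RNAi for spans of 300 to under 700 bp, and 9.15% and 8.63% without loci of a mean of 1000 FPKM or more. The share listed in 1 library was 6.92% at a minimum of 5 FPKM and 5.74% at 10 FPKM. The groups numbered 14 with 37 members at a mean of 50 FPKM. The wider spread than in longer loci, 25.2 percentage points at 10 to 100 FPKM and 34.6 at 100 to 1000 FPKM, kept its direction under both scalings, both pseudocounts, 1 FPKM in both libraries and longer loci of 1000 to under 5000 bp. The other minimums cannot change it, and no other span of the members was tried for it. The reads behind each locus are not given, which limits every ratio at low FPKM.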
